A study of Mus musculus with 6 samples.

Results

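The cd27cd28 fraction of old intraepithelial lymphocytes (IEL) was compared with old IEL CD4 cells, using the arrays titled IEL-cd27cd28-old and IEL-cd4-old, which are 2 of the 6 arrays of the series. Both hold total RNA of T cells from the small intestinal epithelium of male C57BL/6 mice aged 89 weeks, with no genetic change or treatment given in the labels. The other arrays are IEL-others-old, a further fraction of the old IEL, and CD4 cells of the old spleen (SP, 89 weeks), the young IEL and the young SP (5 weeks). The labels give 1 sort for every array, CD3+CD4+, and do not say how the cd27cd28 and others fractions were gated, so these names are used as given, with no sign. It is not stated whether the cells of several mice were pooled on an array. With 1 array a side there is no replicate check, SD or p-value, and every difference below compares these arrays, not the conditions. The repeated control spots give the spot error alone, a log2 SD of 0.18 for a difference between both arrays.

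CD27, a receptor of the TNF receptor family, and CD28, the receptor for CD80 and CD86, give a T cell the second signal it needs besides its antigen receptor, and both can be lost from T cells that have been stimulated many times. Such cells are often cytotoxic and may carry receptors otherwise found on NK cells. T cells of the gut epithelium stay in place, held there by the integrin CD103 and with low use of the receptors that lead cells back to blood and lymph, and those of the CD4 lineage can take up CD8α and granzymes there.

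As deposited, more probes were over 2-fold higher on cd27cd28 (485) than lower (76), but once the difference shared by nearly all probes was taken out 32 were higher and 199 lower, and the farthest named genes were lower on both scales. S1pr1, the receptor by which T cells leave tissue, read 8 on the cd27cd28 array against 495 on the IEL CD4 array. Fcer1g, the signalling adaptor of NK and Fc receptors, read 131 against 2825, and Cd28 read 853 against 4257. With that shared difference out, 0 cytotoxic and 0 interferon response genes with a signal over 100 passed 2-fold. Of the antigen receptor genes only Cd2 did. The cytotoxic list lay above the bulk of all genes, with a median of 0.38 in log2. The chemokine genes Ccl4 and Ccl3 and the cytokine gene Tnf lay farther above it.

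Of 23473 probes, 16870 had a value on both arrays. Signals are linear intensities with the median of each array's detected probes at 25, where 16987 probes were detected on IEL CD4 and 19801 on cd27cd28. Over the 16870 probes the median log2 difference, cd27cd28 minus IEL CD4, was 0.61, a 1.52-fold higher signal, and 90.3% of probes were higher on cd27cd28. The shift was much the same at all signal levels, with a median between 0.52 and 0.71 in 7 ranges of signal. Against the same old IEL CD4 array, the others array had a median of 0.53 and young IEL CD4 one of 0.08. The shift was thus not particular to cd27cd28. Detection was 84.4% of probes on cd27cd28, 85.2% on others, 74.0% on young IEL CD4 and 72.4% on old IEL CD4. The arrays were scaled on different numbers of detected probes, and the part of detection in this shift was not tested. Differences are therefore given relative to it: a relative log2 difference is the log2 difference less 0.61. The whole span from the 5th to the 95th percentile was -0.88 to 0.69 on this scale.

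Among the 5339 probes with a brighter signal over 100, the minimum stated in the methods, 485 were over 2-fold higher on cd27cd28 and 76 were over 2-fold lower, which is 9.08% and 1.42%. Relative to the shift these numbers became 32 higher and 199 lower, 0.599% and 3.73%. Higher probes thus made up 86.5% of those past 2-fold as deposited and 13.9% relative to the shift, so the balance of directions rested on the scaling. Subtracting the median leaves the order of the genes as it was. The lower side reached much further: 24 probes were over 8-fold lower relative to the shift and 2 were over 8-fold higher. Counted by gene, with probes of a gene averaged, 154 of 4531 genes were lower (3.4%) and 24 were higher (0.53%) relative to the shift. These shares are the background for each list below, and as deposited they were 1.3% and 9.31%.

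**Figure D1:**
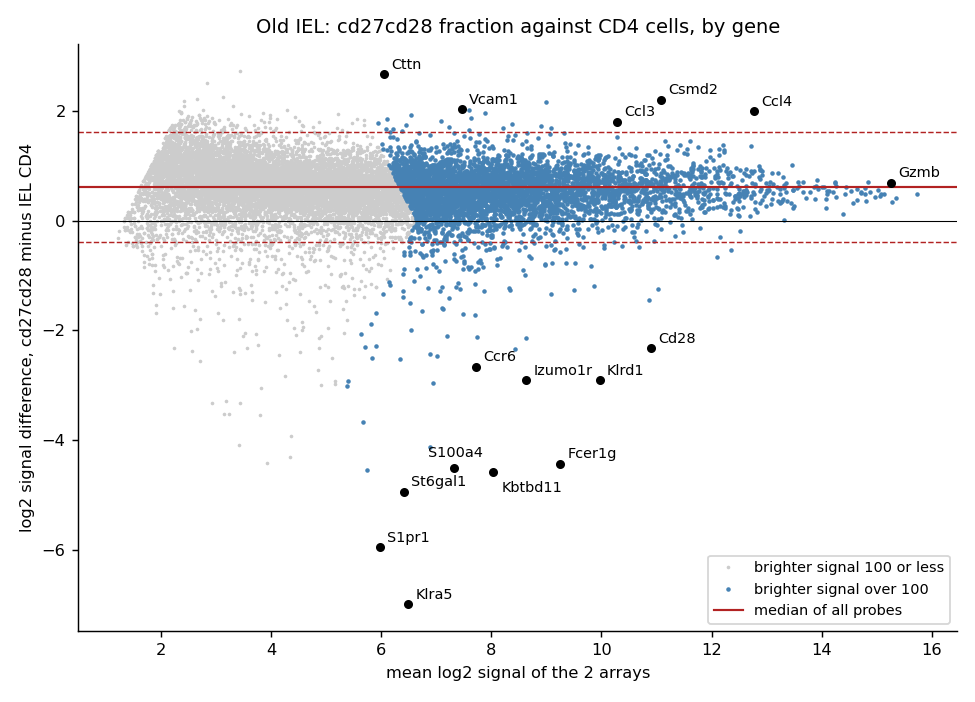
Log2 signal difference, cd27cd28 minus IEL CD4, against the mean log2 signal of both arrays, 1 point per gene, with the median of all probes (0.61) as a solid red line and 2-fold to either side of it as dashed lines. The cloud sits above 0 at all signals, Klra5 and S1pr1 lie farthest below it and Cttn is the highest labelled gene.

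The name of the fraction was set against its markers. Cd28 was 4.99-fold lower as deposited (log2 difference -2.32, relative -2.93), while the IEL others array read 4621, and the young IEL CD4 array 4759. Cd27 was dim on every IEL array, at 38.1 on cd27cd28, 38.7 on IEL CD4 and 65.6 on others, against 191 on old SP. Its relative difference was -0.63, below the signal minimum on both sides. The fraction therefore had the lowest Cd28 signal of the old IEL arrays, and Cd27 gave little to tell it apart from IEL CD4.

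The T cell genes were present on both arrays. Cd3e, a chain of the CD3 complex, read 306 on cd27cd28 and 143 on IEL CD4, and Cd4 read 894 and 434, relative differences of 0.49 and 0.44. The brighter Cd8a probe read 18267 and 16341 (relative -0.45) and the dimmer one 170 and 146 (relative -0.39), so that both probes of Cd8a agree within the spot error. Cd8b1, which encodes the CD8 chain absent from CD8αα homodimers, read 611 and 232, with 555 on others and 647 on young IEL CD4. Zbtb7b, the CD4 lineage factor, was dim at 36.8 and 34, and Runx3, the CD8 lineage factor, at 34.6 and 17.9. Over the 14 antigen receptor and CD3 genes the median relative difference was 0.17, and only Cd2, an adhesion receptor, was over 2-fold lower, at 331 against 514, while as deposited 5 genes of the list were over 2-fold higher and 0 lower. Satb1, a chromatin organiser of thymocytes and naive T cells, was the lowest of the coreceptor and lineage factor list, at 79.3 against 238. Tox, a factor of CD4 lineage development, read 142 against 261.

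Markers of epithelial, B, myeloid, mast and stromal cells had low sums on both arrays, and those of innate lymphoid and NK cells did not. The 11 Paneth cell genes with a named probe summed to 327 on cd27cd28, 183 on IEL CD4 and 7778 on others. The enterocyte list summed to 958, 656 and 3395, and the myeloid list to 557, 560 and 1878. Of 23 enterocyte genes on both arrays 13 were above the shift and 10 below it, as were 9 and 1 of 10 goblet and enteroendocrine genes and 5 and 2 of 7 Paneth genes, and 0 members of these lists passed 2-fold relative to the shift with a signal over 100. The 4 enterocyte genes over 100 were Krt18 (112 against 52.7), Cdh1 (108 against 61.5), Lgals4 (124 against 80.7) and Anpep (133 against 73.2). Krt8 read 6.9 on cd27cd28, 9.3 on IEL CD4 and 376 on others, Epcam 9.1, 11.3 and 58.7, and Elf3, an epithelial transcription factor, 34.2, 15.4 and 45.4. Of the B cell list Cd79b was the brightest, at 124 and 108, and Ms4a1, the CD20 gene, had no value on either array. In the myeloid list Itgax, the integrin CD11c that some IEL also carry, was 14.5 against 82.5, H2-Aa was 99.3 against 145 and Lyz2 was 12.2 against 27.8. The innate lymphoid and NK list summed to 13372 on cd27cd28 and 7261 on IEL CD4. Its 5 members over 100, Id2, Nkg7, Cd160, Il7r and Gata3, are also expressed by T cells. The NK receptor Ncr1 read 4.5 and 2.7 and Klrb1c, the NK1.1 gene, 5.7 and 8.7. The part of these cells in the differences below was not tested. Genes of the others array are set beside this comparison only as levels, since that array carries epithelial signal.

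**Figure D2:**
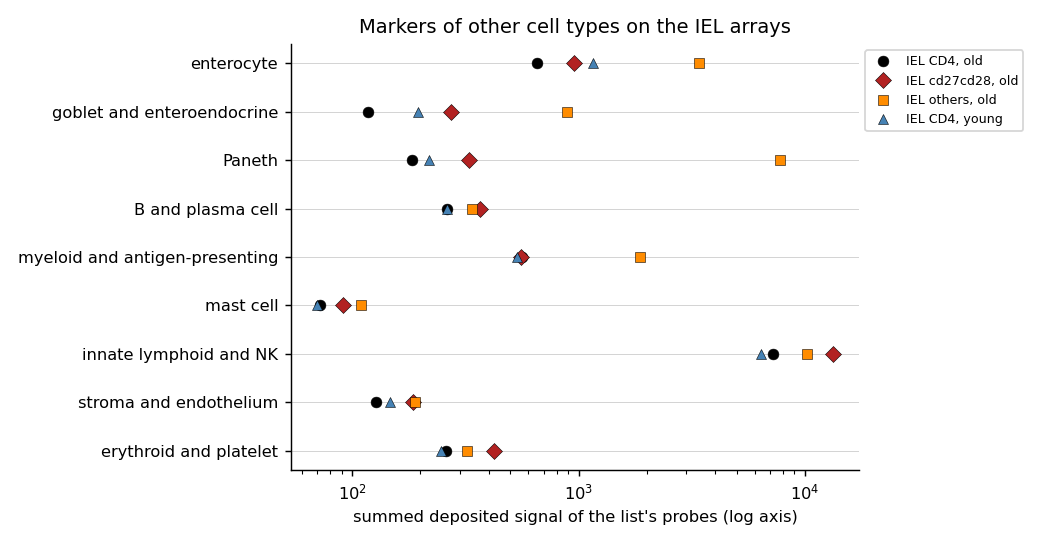
Summed deposited signal of 9 marker lists on the old IEL CD4, cd27cd28 and others arrays and on young IEL CD4, on a log axis. The others array stands apart for Paneth markers, at 7778 against 327 on cd27cd28 and 183 on IEL CD4, and to a lesser degree for enterocyte, goblet and myeloid markers.

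Over all members with a value on both arrays, the list of chemokine and egress receptors, which includes receptors of tissue homing, had the lowest median. Over members with a signal over 100 its median was -1.02, and several lists lay lower. The lowest of these was the NK receptor and adaptor list, at -3.56. In the list of chemokine and egress receptors 10 genes had a signal over 100, of which 5 were over 2-fold lower both as deposited and relative to the shift, and 0 were higher. The median relative difference of its 16 genes on both arrays was -1.86, against 0.01 over all genes, and it stayed below 0 under each alternative that took the shift out. S1pr1 read 8 on cd27cd28, 495 on IEL CD4, 556 on others, 481 on young IEL CD4 and 1396 and 1881 on old and young SP, so that the cd27cd28 array stood alone below 100. Its relative log2 difference was -6.56. As deposited the log2 difference was -5.95, which normexp background correction reduced to -0.17. Cxcr5, the receptor for the B cell follicle chemokine CXCL13, read 15.2 against 116, relative -3.54. Ccr6, the receptor for CCL20 and a receptor of Th17 cells, read 84.1 against 532, relative -3.27. Gpr183, which positions lymphocytes by oxysterols, read 23.8 against 135, relative -3.11. Ccr2, a receptor for inflammatory chemokines, read 91.1 against 209.6.

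Other members were below the signal minimum. Ccr7, the lymph node homing receptor, read 3.3 against 70.1, and Cxcr4, the receptor for CXCL12, read 7.13 against 50.7 as a mean of its probes, which differ in size (relative -2.52 and -4.35). On the other side of the list, the tissue receptors did not follow. Cxcr6 read 543 against 386 (relative -0.11), Ccr9, the small intestinal homing receptor, 195 against 151 (-0.24), Ccr4 10098 against 6962 (-0.07) and Cxcr3 301 against 166 (0.25). Gpr18, a receptor known for its role in IEL numbers, read 5648 against 3462 (0.10).

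The naive and central memory list, which shares S1pr1, Ccr7 and Satb1 with other lists, had 5 of 7 genes over 100 lower relative to the shift, 4 as deposited, and 0 higher, with a median relative difference of -1.15 over 18 genes. Its further members included Nsg2, at 23.5 against 116, and Txk, a kinase of the Tec family, at 140 against 310. Klf3, a Krüppel-like factor, read 96.3 against 183. Lef1, a factor of naive T cells, read 6.2 against 29.9, and Bach2, a repressor of effector genes, 10.3 against 31, both below the minimum. Klf2, the factor known to drive S1pr1, was dim and lay at 46.5 against 33.1, relative -0.12. Within this list the members thus ran from a signal at the floor to one that moved with all genes.

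Several of the farthest genes belong to no list. St6gal1, which adds sialic acid to glycans, read 15.4 on cd27cd28, 472 on IEL CD4, 609 on others and 3634 on old SP, with a relative difference of -5.54. Kbtbd11, a BTB and Kelch domain gene, read 53.4, 1278, 1449 and 10072 on the same arrays, relative -5.19. Izumo1r, a folate receptor family protein of regulatory and activated CD4 cells, read 145, 1086, 2140 and 8338. These genes were brighter in SP than in IEL, and the cd27cd28 array lay below every other array in each. Cpe, the gene of carboxypeptidase E, went another way: it read 11.1 on cd27cd28, 260 on IEL CD4 and 284 on others, but 13.7 on old SP. Gramd3, of the GRAM domain family, read 14.3 against 181.

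The S100 genes S100a4 and S100a6 encode small calcium-binding proteins that are high in effector and memory T cells. S100a4 read 33.4 on cd27cd28, 759 on IEL CD4, 815 on others, 296 on young IEL CD4, 1460 on old SP and 380 on young SP, relative -5.11. S100a6 read 44.1, 343, 390, 181, 645 and 150 on the same arrays, relative -3.56. The cd27cd28 array was again the lowest of the 6 in both. Other members of the list of 18 S100, annexin and galectin genes lay nearer the shift, such as S100a10 at 3897 against 3263 (-0.35), S100a11 at 9588 against 7803 (-0.31) and Anxa2 at 735 against 696 (-0.53). In GRCm38.p6 S100a4 and S100a6 lie close to each other on chromosome 3, with 6849 bases between them in which S100a5 lies, a dim gene at 29 against 24.5 (relative -0.36). Their promoters are shown since both genes were far lower, each from 250 bases before to 50 after the start in RefSeq, so the last 50 bases are transcribed; S100a4 is at chr3:90603520-90603819 and S100a6 at chr3:90612644-90612943, both on the plus strand. Capitals mark a TATA box (TATAAA, on the strand shown) or an AP-1 pattern (TGANTCA, which reads the same on both strands).
S100a4: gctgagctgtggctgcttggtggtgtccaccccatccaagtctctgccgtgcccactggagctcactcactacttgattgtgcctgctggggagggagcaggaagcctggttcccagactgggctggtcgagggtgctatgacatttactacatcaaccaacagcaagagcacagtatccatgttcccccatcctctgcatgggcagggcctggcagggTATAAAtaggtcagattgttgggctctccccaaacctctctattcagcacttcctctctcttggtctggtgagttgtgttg
S100a6: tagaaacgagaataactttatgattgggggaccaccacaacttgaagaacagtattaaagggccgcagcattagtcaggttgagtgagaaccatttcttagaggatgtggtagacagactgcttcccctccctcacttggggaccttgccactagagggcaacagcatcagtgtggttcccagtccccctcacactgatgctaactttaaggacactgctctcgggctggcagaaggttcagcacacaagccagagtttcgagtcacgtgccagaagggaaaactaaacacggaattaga
The S100a4 window holds a TATA box and that of S100a6 neither pattern, while 8.32% of the 32851 RefSeq promoters of this length hold the TATA box and 7.81% the AP-1 pattern. A match is a description of letters only.

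The receptors of the NK type held the gene with the largest difference of all. Klra5, an inhibitory receptor of the Ly49 family, read 8 on cd27cd28 and 1013 on IEL CD4, but also 11.2 on others, 54.3 on young IEL CD4, 3.1 on old SP and 9 on young SP. The old IEL CD4 array was the only one over 100. The Ly49 genes are close copies of each other, so a probe may also read a relative, and Klra6 (14.7 against 118) is uncertain in the same way. Fcer1g read 131 on cd27cd28, 2825 on IEL CD4, 1560 on others, 201 on young IEL CD4, 18.4 on old SP and 14.3 on young SP, relative -5.04. Klre1, a receptor that pairs with other lectin-like chains, read 28.4, 497 and 230 on the old IEL arrays, relative -4.74, and Klrd1, the CD94 chain, read 366, 2744 and 1701, relative -3.51. Among the old IEL arrays Fcer1g, Klre1 and Klrd1 were thus high on IEL CD4, intermediate on others and low on cd27cd28. IEL CD4 also lay above both fractions for Klra5 and for Klra6, which read 44.9 on others. The part of the IEL CD4 array or its cells in these differences, beside that of cd27cd28, was not tested. On young IEL CD4, old SP and young SP, Klrd1 read 168, 81.4 and 281 and Klre1 read 11.1, 16.3 and 14.9, all below cd27cd28. Fcer1g was lower on cd27cd28 than on young IEL CD4 but higher than on SP.

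Of the 22 NK receptor and adaptor genes with a named probe, 20 had values on both arrays and 8 passed the signal minimum. All 5 that were lower relative to the shift are those just named (Klra5, Klra6, Klre1, Klrd1 and Fcer1g), and 0 were higher. Tyrobp, the DAP12 adaptor, was dim and read 24.8 against 68.1, and Klrc1, the NKG2A partner of CD94, read 14.8 against 31.3. The remaining 3 over the minimum kept with all genes: Hcst, the DAP10 adaptor, at 3709.7 against 2541 (relative -0.06), Cd244a, the 2B4 receptor, at 2714 against 1509 (0.24) and Sh2d2a, a T cell adaptor, at 528 against 364 (-0.07). The lectin-like receptor genes are grouped on chromosome 6, and members there differed: Klrc2, at 31.4 against 19 (0.12), and Klra3, at 10.7 against 7.6 (-0.11), were dim and near the shift. The promoter of Klra5, the gene farthest from the shift, lies at chr6:129913175-129913474 on the minus strand and has a TATAAA match but no AP-1 pattern. The match lies far upstream of the start, not close to it as in the S100a4 window, and is a description of letters only.
Klra5: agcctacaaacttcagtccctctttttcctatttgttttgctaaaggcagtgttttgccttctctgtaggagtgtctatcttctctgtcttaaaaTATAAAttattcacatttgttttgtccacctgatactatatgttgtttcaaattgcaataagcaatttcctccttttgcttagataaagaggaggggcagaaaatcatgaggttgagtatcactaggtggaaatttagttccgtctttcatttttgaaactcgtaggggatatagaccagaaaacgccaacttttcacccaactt

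**Figure D3:**
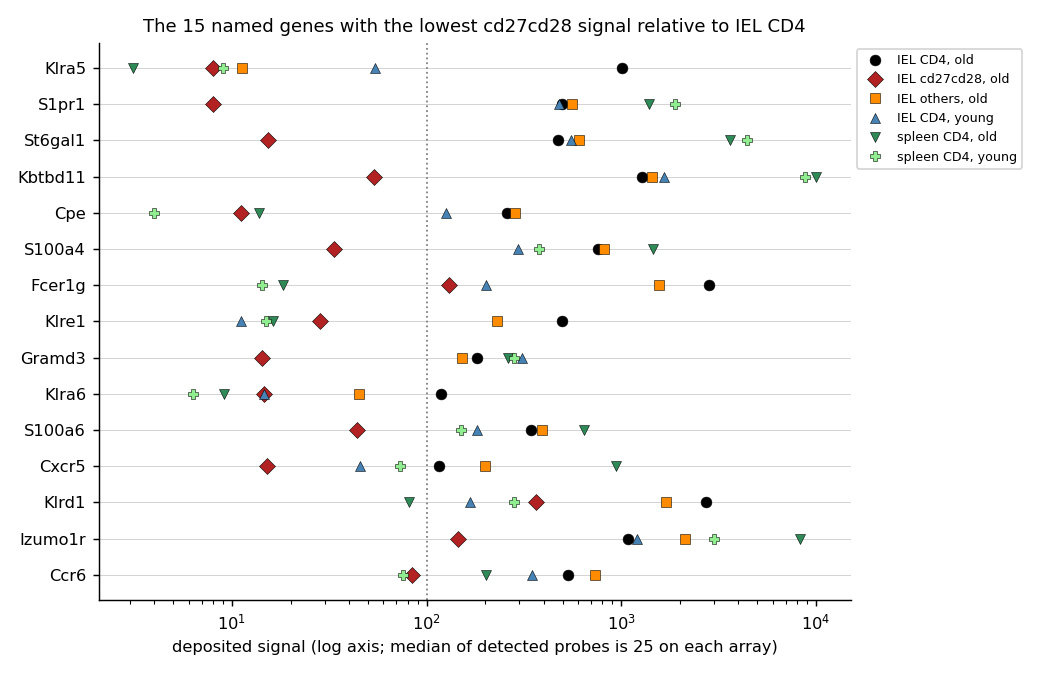
Deposited signal on all 6 arrays (log axis) of the 15 named genes with the lowest cd27cd28 signal relative to IEL CD4, with the dotted line at a signal of 100. The red diamond of cd27cd28 is the lowest point for S1pr1, St6gal1, Kbtbd11, S100a4 and S100a6, and Klra5, Klre1 and Klra6 are also low in SP and in young IEL.

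Some costimulatory receptors were lower beside Cd28. In the CD28 family of 5 genes, Cd28 and Icos were over 2-fold lower relative to the shift and 0 were higher, and as deposited Cd28 alone passed 2-fold. Icos, the inducible costimulator, read 150.5 against 286, Pdcd1, the PD-1 gene, 40.8 against 40.8, and Ctla4, the inhibitory receptor for the same ligands as CD28, 10252 against 10123 (relative -0.59). Of the TNF receptor family Tnfrsf4, the OX40 gene, read 153 against 769.8 and 1230 on others, relative -2.94. Tnfsf8, the CD30 ligand, read 54.4 against 153, and Tnfrsf18, the GITR gene, 692 against 959. In total 3 of the 4 members over 100 were lower relative to the shift and 2 as deposited, and 0 were higher. Cd40lg, the CD40 ligand, was dim and on the other side, at 49.5 against 16.7.

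Lists of helper subsets differed from each other, and they share members with those above. The regulatory T cell list had 4 of 7 genes over 100 lower relative to the shift (Izumo1r, Tnfrsf4, Tnfrsf18 and Il2ra), 2 as deposited, and a median of -0.96, while Foxp3, the defining factor, was dim at 17 against 17.9 and Ikzf4 read 153 against 74.9. Il2ra, the CD25 chain, read 80.5 against 118. The follicular helper list had 4 of 7 lower, 2 as deposited, and a median of -1.03, with Il21, its main cytokine, at 47.9 against 107 and Sh2d1a, the SAP adaptor, at 664 against 892. Slamf6, a receptor that SAP serves, was dim and read 2.8 against 32. For Th17 genes 3 of 6 were lower on both scales and the median was -1.55. Tmem176b and Tmem176a, ion channel genes linked to Th17 cells, read 208 against 489 and 108 against 249. Batf, a factor of effector T cells, was on the other side at 2346 against 1034, relative 0.57. The Th1 genes over 100 numbered 5, and 0 of these passed 2-fold either way: Tbx21, the T-bet gene, read 997 against 741 and Stat4, which signals for IL-12, 640.2 against 683. Their median relative difference was 0.10, while that of all 10 Th1 genes on both arrays was -0.38. Of the Th2 genes 4 were over 100 and 0 passed 2-fold either way, with Gata3, the defining factor, at 137 against 115 (-0.35) and Il4ra, an IL-4 receptor chain, at 357 against 222 (0.08). The medians over all genes of the regulatory, follicular helper, Th17 and Th1 lists stayed below 0 under each alternative that took the shift out, but as deposited that of the Th1 list was 0.23.

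The cytotoxic genes stayed high on both arrays. Gzmb, the granzyme B gene, read 49613 on cd27cd28, 30757 on IEL CD4, 39560 on others and 87.9 on old SP, a relative difference of 0.08. Gzma, the granzyme A gene, read 16059, 7948, 10377 and 6.8, relative 0.41. The cd27cd28 array was the highest of the 6 for both, as deposited. Nkg7, a granule membrane protein, read 5074 against 2623 (0.35), Cst7, cystatin F, 5312 against 2749 (0.34), Prf1, perforin, 141 against 67.9 (0.45) and Fasl, the death ligand, 663 against 268 (0.70). Gzmk, the granzyme K gene, read 361 against 134 (0.83), the highest of the list among genes over 100. Serpinb9, the inhibitor of granzyme B, read 218 against 216, which is -0.59 relative to the shift. Of the 12 members over 100, 5 were over 2-fold higher as deposited, against 9.31% of all genes, but 0 passed 2-fold in either direction relative to the shift. The median of the 16 genes was 0.98 as deposited and 0.38 relative, and it stayed above 0 under each alternative.

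Genes of residence in the epithelium mostly moved with the array. Itgae, the CD103 chain, read 821 against 483, Cd69, a retention receptor, 1087 against 609.9 and Cd160, an IEL receptor, 966 against 593, with relative differences of 0.16, 0.23 and 0.10. Rgs1, a brake on chemokine receptor signals and one of the brightest genes here, read 36115 against 25166 (-0.09), while Rgs2 read 3486 against 5517 (-1.27). Ahr, the aryl hydrocarbon receptor that IEL need, read 693 against 831 (-0.87). Of 19 members over 100, 4 were lower and 0 were higher relative to the shift, the lowest being Fcer1g, and as deposited 1 was lower and 1 higher. The median of -0.11 changed sign under 75th percentile scaling and with 16 added before log2, so no direction is given. Cd226, the activating receptor DNAM-1, read 1117 against 369, relative 0.99. Slamf7, another activating receptor of cytotoxic cells, read 837 against 328, relative 0.74.

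On the higher side few genes stood out, and the differences were smaller. Cttn, the gene of the actin-binding protein cortactin, read 167 on cd27cd28, 26.2 on IEL CD4, 111 on others and 49.2 on young IEL CD4, with the largest relative difference of a named gene over 100, 2.06. Csmd2, a gene of a large CUB and sushi domain protein, read 4659, 1015, 3059 and 1261, relative 1.59. Vcam1, an adhesion ligand mainly of stromal and endothelial cells, read 357, 87.6, 168 and 43.2, relative 1.42. In each of these the cd27cd28 array was the highest of all 6. Of 11 stromal and endothelial markers on both arrays 6 were above the shift and 5 below it, with a median of 0.02 and 0 over 100. They ran from Pecam1, an endothelial marker, at 3.2 against 12.5 to Myh11, a smooth muscle myosin, at 7.7 against 3.1, and the collagen gene Col1a2 read 31.2 against 13.8. Their part in the Vcam1 signal was not tested.

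Among signals to other cells, Ccl4, a chemokine that draws leukocytes, read 13983 on cd27cd28, 3516 on IEL CD4, 5979 on others, 891 on young IEL CD4, 67.5 on old SP and 5.4 on young SP. Its relative difference was 1.38. Ccl3, its neighbour on chromosome 11 with a like role, read 2316, 665, 1101, 206, 57.3 and 8.5, relative 1.19. Tnf, the inflammatory cytokine, read 255, 72.6, 168, 75.6, 150 and 53.8, relative 1.21. The cd27cd28 array was the highest in all 3. Ccl5, the brightest probe of both arrays, read 64659 against 46343 and so stayed at -0.13. Cxcl10, an interferon-induced chemokine, was lower instead, at 99.4 against 322 (-2.30), and the dim Cxcl2, a neutrophil chemokine, read 5.3 against 79.9. The 10 chemokine genes on both arrays thus spread from -4.52 to 1.38.

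Promoters of Tnf and Ccl3 are shown since both genes lay above the shift. That of Tnf is at chr17:35201958-35202257 and that of Ccl3 at chr11:83649329-83649628, both on the minus strand and written 5′ to 3′ with the same marks.
Tnf: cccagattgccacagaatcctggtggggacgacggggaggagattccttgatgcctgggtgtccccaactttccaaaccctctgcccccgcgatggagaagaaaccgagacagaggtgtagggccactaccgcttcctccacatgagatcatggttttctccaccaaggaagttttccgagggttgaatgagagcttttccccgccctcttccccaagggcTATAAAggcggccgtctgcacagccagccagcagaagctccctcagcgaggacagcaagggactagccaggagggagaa
Ccl3: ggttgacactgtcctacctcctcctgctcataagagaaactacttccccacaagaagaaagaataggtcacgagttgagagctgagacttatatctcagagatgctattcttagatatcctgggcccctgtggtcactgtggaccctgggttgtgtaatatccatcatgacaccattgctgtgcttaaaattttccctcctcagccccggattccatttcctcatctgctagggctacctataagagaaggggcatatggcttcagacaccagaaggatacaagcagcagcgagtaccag
The Tnf window holds a TATA box and the Ccl3 window neither pattern. Of the 15 named genes highest relative to the shift 9 have a promoter in the table, 2 with the TATA box and 1 with the AP-1 pattern, counting the first start listed for a gene. For the 15 lowest these numbers were 9, 3 and 0.

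The other named genes with the highest signals have less clear roles in T cells. Prodh, the proline dehydrogenase gene, read 378 against 103, Flrt3, an adhesion protein of neurons and endothelium, 131 against 36.3, and Sytl1, a synaptotagmin-like protein of vesicle traffic, 114 against 33.2. Serpinb6c, of the serpin family that inhibits granule proteases, read 181 against 47.8. Nrbp2, a pseudokinase gene, read 612 against 181, Ldb3, a Z-disc protein of muscle, 270.5 against 83.2 and Nmb, the neuropeptide neuromedin B, 973 against 301. The olfactory receptor genes Olfr44 (390.2 against 96.3) and Olfr229 (465 against 120.1) belong to a large family of near copies, so their probes may read relatives. The relative differences of these 9 genes lay between 1.08 and 1.41.

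**Figure D4:**
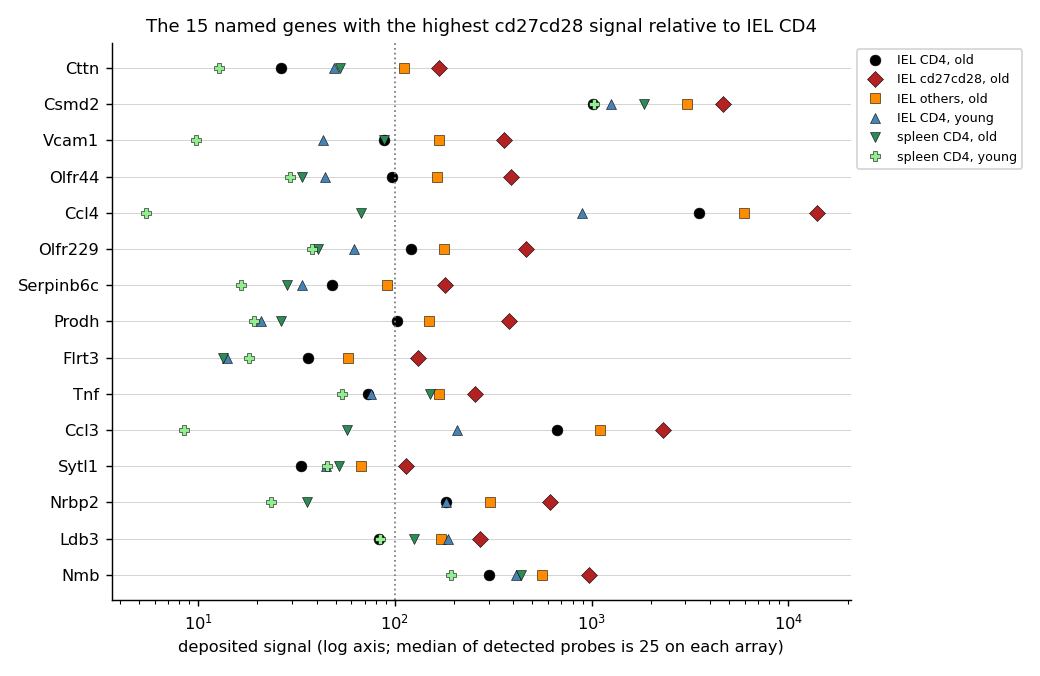
Deposited signal on all 6 arrays (log axis) of the 15 named genes with the highest cd27cd28 signal relative to IEL CD4, with the dotted line at 100. The cd27cd28 diamond is the rightmost point in each row, others lies between it and old IEL CD4 for most genes, and Ccl4 and Csmd2 are the brightest.

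Cytokine genes were mixed. Ifng, the interferon gamma gene, read 15491 on cd27cd28, 9511 on IEL CD4 and 10433 on others, relative 0.10. Of 6 cytokine genes over 100, Tnf was higher relative to the shift, and Il21 and Tnfsf11, the RANKL gene (217 against 352), were lower, Tnfsf11 only on that scale. Helper cytokines below the signal minimum went both ways: Il4 read 5.4 against 23.2, Il2 22.5 against 68.8 and Il17f 20.1 against 55.7, whereas Il5 read 16 against 5.6 and Il17a 46.8 against 40. Il10 read 100 against 129.6 (-0.98). Among 11 cytokine receptors over 100, 0 passed 2-fold as deposited, and relative to the shift 4 were lower and 0 higher: Ifngr1, a chain of the interferon gamma receptor, at 171 against 309, Il6st, the gp130 chain, at 130.3 against 199, Il2ra, and Il10ra at 184 against 257. Il7r, the receptor of memory T cell survival, read 168 against 216 (-0.97), and the IL-18 receptor genes Il18r1 and Il18rap were dim at 6.5 against 27.1 and 27.8 against 63.4. Il12rb1, which serves IL-12 and IL-23, read 1197 against 613 (0.36). The list's median of -0.67 kept its sign once the shift was out.

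Some genes of NF-kB signalling and of heat shock were lower relative to the shift, while other stress lists lay near it. The unfolded protein and integrated stress list had a median of -0.04 and 0 of 14 genes over 100 past 2-fold. The antioxidant list had a median of -0.08 and 1 of 11 lower. As deposited the heat shock median was 0.04. Of 9 NF-kB genes over 100, 2 were lower relative to the shift and 1 as deposited. Nfkbia, the inhibitor IκBα and itself a target of NF-kB, read 1354 on cd27cd28, 3211 on IEL CD4 and 2546 on others, relative -1.85, but was higher on cd27cd28 with normexp background correction. Nfkbid, another inhibitor of the family, read 7017 against 3988 (0.21). Birc3, a survival target, read 222 against 315 (-1.11). All 14 heat shock genes were below the shift, with a median of -0.57, though 2 of the 10 over 100 passed 2-fold, Hspa1a as deposited too: Hspa1a, an inducible HSP70, at 209 against 506 and 125 on others, and Dnaja1, a cochaperone, at 329 against 459.8. Hsp90aa1 read 22415 against 20554. Immediate early genes, which respond to handling as well as to stimulation, had 0 of 12 past 2-fold: Fos read 837 against 547 (0.01), Jun 763 against 599 (-0.26), Nr4a1 1516 against 1067 (-0.10) and Dusp1 4107 against 5044 (-0.90). Of 10 genes over 100 in the list of cell cycle inhibitors, 3 were lower and 0 higher relative to the shift, but as deposited 0 were lower and 1 was higher, Cdkn2d, a CDK4 and CDK6 inhibitor, at 202 against 94.6. The 3 were Cdkn1a, the p21 gene, at 73.5 against 136 (-1.49), Tob1, an antiproliferative gene of resting T cells, at 132 against 243, and Gadd45g, a stress-induced gene, at 325 against 427. Mt1, a metallothionein, read 47.9 against 104.

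Genes of cell division lay above the shift by a small margin, and with normexp background correction their sign depended on the median subtracted. Of 22 mitosis genes 21 were above the shift, with a median of 0.48, but 0 of the 8 over 100 passed 2-fold. With normexp the list median was -0.14 once the normexp median of probes over 100, 0.26, was subtracted, and above 0 before. The normexp median of all probes was -0.01. Cdk1, the mitotic kinase, read 399 on cd27cd28, 147 on IEL CD4 and 474 on others, relative 0.83. Birc5, survivin, read 299.9, 139.5 and 588, and Ccna2, cyclin A2, 126, 72.1 and 299, so that others was the highest of the 3. Mki67, the proliferation marker, was dim at 32.7 against 19.7. For DNA replication 0 of 13 genes passed 2-fold and the median was 0.27. With normexp this list median was -0.16 after the same subtraction of 0.26, and above 0 before. Pcna, the sliding clamp, was the lowest at 1207 against 1290.4 (-0.70), and Tyms, thymidylate synthase, read 414 against 192 (0.51).

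Lists of basic cell functions lay near the shift. The 28 genes of oxidative phosphorylation, all over 100, had a median of 0.18 and 0 past 2-fold, and the 22 cytosolic ribosomal protein genes a median of -0.15. Housekeeping genes had a median of -0.26 over 13 genes, with Hprt at 0.05 (4031 against 2557), Ppia at -0.20 (47941 against 36128) and Actb at -0.37 (884 against 749). As deposited, the 3 medians were 0.79, 0.46 and 0.35, so that these genes were higher on cd27cd28 before the shift was taken out. MHC class I genes (median 0.05), interferon response genes (0.15) and GIMAP GTPases of lymphocyte survival (0.14) also had 0 members past 2-fold relative to the shift. Glycolysis genes had a median of -0.22 and 0 past 2-fold, with Ldha, lactate dehydrogenase A, at 222 against 236. In lipid metabolism Cpt1a, which admits fatty acids to mitochondria, read 219.7 against 290.1 (-1.01).

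**Figure D5:**
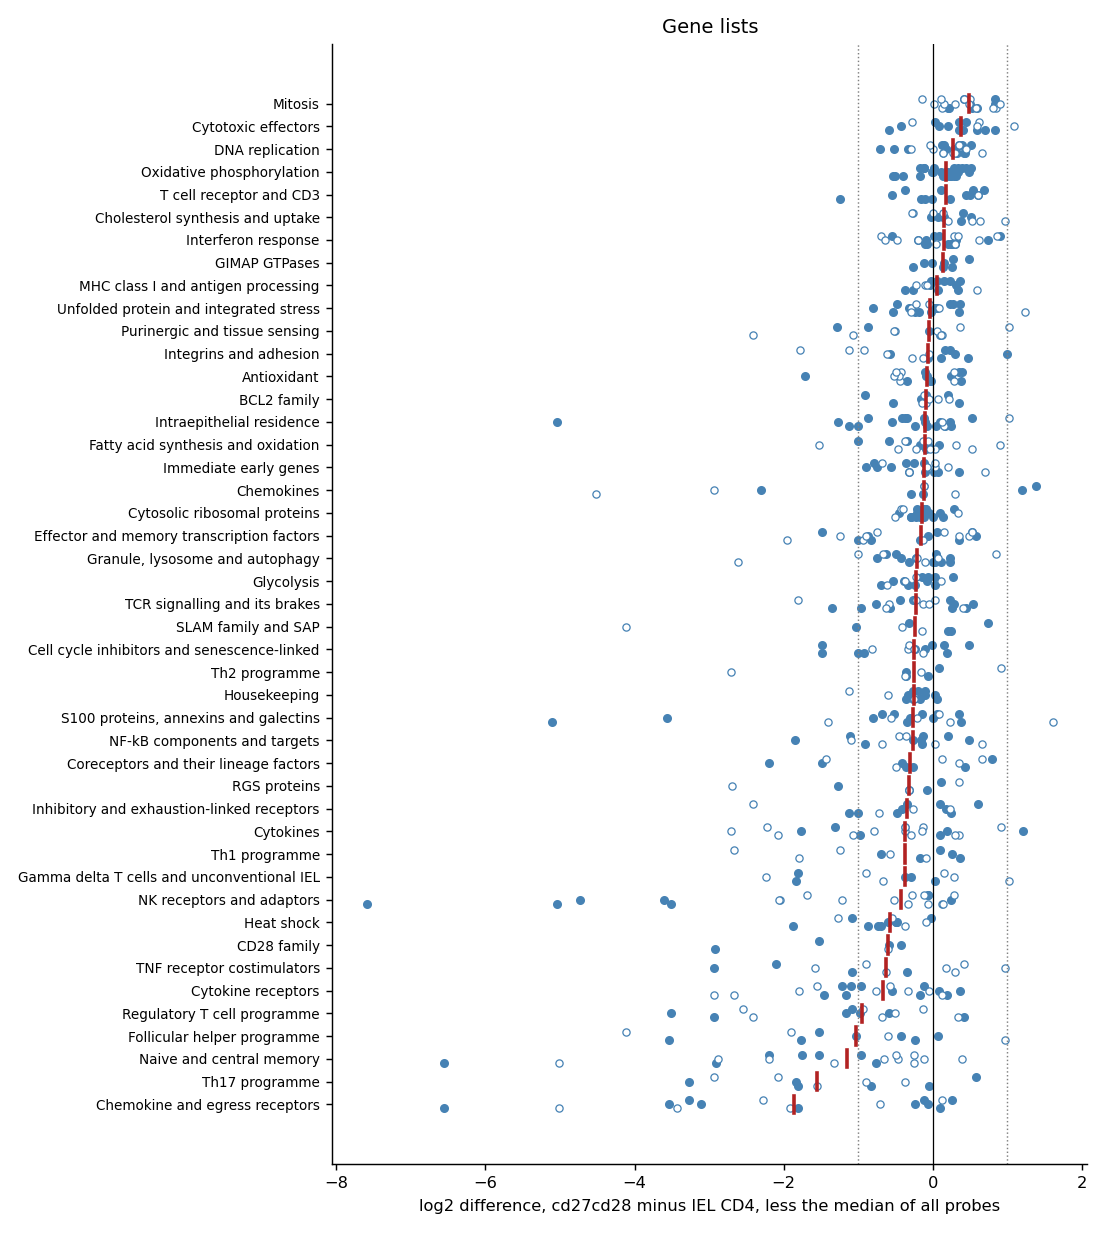
Relative log2 difference, cd27cd28 minus IEL CD4 less the median of all probes, for each member of 45 gene lists sorted by their median (red bar). Filled points have a brighter signal over 100, open points do not, and dotted lines mark 2-fold. Mitosis (0.48) and cytotoxic effectors (0.38) are at the top and chemokine and egress receptors (-1.86) at the bottom, with long tails to the left in many lists.

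The probes with the largest higher difference have no gene name. Of 539 unnamed probes over 100, 6 were higher and 36 lower relative to the shift. The highest read 546 on cd27cd28, 6.2 on IEL CD4 and 390 on others, relative 5.85, and the next read 883, 62.3 and 417, relative 3.22. Both were thus bright on others too.

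A value on 1 array only was found for 2931 probes on cd27cd28 and 117 on IEL CD4, and 0 of these were over 100. Against the lowest value of the other array they give bounds, here relative to the shift. Sct, the secretin gene of enteroendocrine cells, read 22.3 and was at least 5.86-fold higher on cd27cd28. Agtr1a (17.9), an angiotensin receptor, was at least 4.7-fold higher, Nova2 (12.7), a splicing factor, at least 3.34-fold, Gtsf1 (11.9) at least 3.13-fold and Gins1 (11.2), a replication factor, at least 2.94-fold. In the other direction Nkx2-5 (28.0), a cardiac factor, was at least 20.3-fold lower. Sh2d1b1 (16.6), the EAT-2 adaptor of NK cells, was at least 12-fold lower, Ankib1 (15.7) at least 11.4-fold, Frmd4a (13.4, by 1 of its probes, while others were dim on both arrays) at least 9.72-fold and Gja1 (13.2), connexin 43, at least 9.57-fold. These signals are below the median probe or close to it.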

How the data were processed

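RNA of sorted T cells had been labelled with Cy5 and hybridised to 3D-Gene mouse arrays of 23473 probes. The deposited value table of the authors gives globally normalised intensity on a linear scale, with the median of detected probes at 25 on each array and no value for undetected probes. The deposited scanner files give each spot's median intensity and its local background. Subtracting the mean of 384 blank spots (5% left out at each end), keeping probes above it by more than 2 SD and scaling to 25 gave the table's values back with a median absolute log2 difference of 0.0037 on cd27cd28 and 0.0097 on IEL CD4. The authors' exact detection rule is not given in the sources used here. Detection ranged from 72.4% to 85.2% of probes, and the number of arrays limits the precision.

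Log2 differences were taken for probes with a value on both arrays, log2 values of a gene's probes were averaged, and the median of all probes was subtracted for relative values. Calls needed over 2-fold and a brighter signal over 100. Probe names came from the platform annotation: 20690 probes have 1 gene symbol, 0 of the 20556 looked up in the reference gene table changed, and 2783 are unnamed. Promoters are from RefSeq on GRCm38.p6. The AP-1 pattern took the place of an NF-kB pattern after the matches of the latter had been seen.

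The comparison, the 54 lists (864 genes) and their members were chosen with earlier results of these data known. Named genes are the 15 largest differences each way over 100, the 5 brightest bounds each way, the sort markers and, per list, up to 6 members farthest from the shift; clone and predicted names were passed over. Other genes were named after their values were seen. Alternatives were other scalings, the recovered signal, normexp (offset 50, limma 3.58.1, R 4.3.3), 16 added before log2, other thresholds, undetected probes at the lowest value and the brightest probe per gene. The steps were tested on simulated data with a known shift and known changes.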

Additional observations from a re-analysis of the deposited data

How the results depend on the processing

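No paired analysis was possible because each group has 1 array, and no array could be left out in turn. As deposited, 485 probes were over 2-fold higher and 76 lower. With the median of all probes subtracted these numbers were 32 and 199, with quantile normalization 49 and 168, and with a common 75th percentile 53 and 156. A 3-fold threshold left 36 and 43. With no signal minimum 2618 were higher and 217 lower, and a minimum of 200 left 45 lower (343 higher). The recovered signal (503 and 75), 16 added before log2 (338 and 71) and undetected probes at the lowest value (485 and 76) kept both counts within 1.5 times. Normexp gave 438 and 95, but of 1706 probes over 100 rather than 5339, so that the shares rose. It did not take the shift out: with its offset most dim probes lie near a common value, and the median of probes over 100 stayed at 0.26. That median was subtracted from the list medians with normexp but not from single genes. Log2 spot signal and log2 local background correlated at 0.97 on cd27cd28 and 0.98 on IEL CD4. Normexp moved Rps3 from 0.15 to 5.15 and H2-K1 from 0.23 to -2.57, both under 2-fold apart as deposited. It turned Nfkbia from -1.25 to 1.39, Il21 from -1.16 to 0.16 and Uqcrc2 from 1.12 to -0.018 in log2 difference. The cause, and the part of the local background in it, was not tested. Of the 68 named genes past 2-fold as deposited with a signal over 100 these 3 changed sign, and so did 15 of the 71 below that minimum, among them Asns, S100g, Rgs16, Col1a2 and Myh11, all with normexp; 0 did under the other alternatives run on single genes. Dim probes are limited by the blank spots, and spot error leaves out differences between mice and arrays.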
